A study of Homo sapiens with 8 samples.

Results

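Follistatin (FST) and 8 other genes for secreted antagonists of bone morphogenetic proteins (BMPs) and activins were followed through posterior neural differentiation of human pluripotent stem cells. The members were FST, FSTL1, FSTL3, SMOC1, SMOC2, CHRD, NOG, BMPER and GREM1, taken by gene symbol, 9 of the 35940 symbols in the expression table, and all 9 were found. FST and SMOC1 were chosen by their measured rise in TPM over these same libraries, so their courses are described without a test. The cells were ESI017, an established human embryonic stem cell line labelled wild type. In all groups they were kept in mTeSR1, moved to N2B27 medium with 10 µM SB and 100 nM LDN, and harvested at 34, 42, 50 or 72 h. In the field these short names usually stand for inhibitors of the activin and nodal receptor kinases and of the BMP receptor kinases, although the labels do not spell them out. Recombinant human WNT3A, at 300 ng/mL, was added at 34 h, so the later groups had 8, 16 and 38 h with it. Each time had 2 libraries from poly(A)-enriched RNA, replicate 1 and an independent biological replicate 2, and the labels give the replicate number as a batch number too. Cultures kept free of WNT3A were not analysed here, so elapsed time and exposure to WNT3A cannot be told apart.

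BMPs, activins and nodal are dimeric ligands that bring type I and type II receptor kinases together and signal through SMAD proteins. Secreted antagonists work outside the cell, most of them by binding a ligand before it reaches its receptors. Follistatin binds activins nearly irreversibly and some BMPs more weakly, noggin and chordin bind BMPs, and in vertebrate embryos noggin, chordin and follistatin are made by the organizer, where BMP antagonism favours neural over epidermal fate.

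The table of RefSeq promoters (GRCh38.p14) held 10 promoters of 8 members, with NOG not among them. The 30 bases from -40 to -11, counted from the RefSeq start, are shown because the core promoter is a sequence feature that the choice of members did not use. Capitals mark a run of at least 6 letters made only of A and T.
FST, chr5:53480589-53480618, plus strand: cccgtctagATTTAAAgcgcggctgcgccc
SMOC1, chr14:69879376-69879405, plus strand: tcccgggggTTTATAAcgggaattcccatg
FSTL3, chr19:676352-676381, plus strand: cccgcgggaccTTTATAgggagcgccggcc
CHRD, chr3:184380014-184380043, plus strand: cgggcgcggggcATAAAAcgggccggagcc
GREM1, chr15:32717964-32717993, plus strand: tgccgccggcATTTAAAcgggagacggcgc
SMOC2, chr6:168441144-168441173, plus strand: agctccggggtatttgacaggagcgagggc
FSTL1, chr3:120451003-120451032, minus strand: aaggagaggtcttaaggggcggcgagggga
Such a run was present in 5 of the 10 member windows. The 3 windows not printed, both of BMPER and that of a second GREM1 promoter, had none. The runs began at -31 in FST and SMOC1, -30 in the GREM1 window shown, -29 in FSTL3 and -28 in CHRD. Of all 34943 promoters in the table, 18.1% held one in the same window. The genes with a run include FST and SMOC1, which were picked for their rise, and also FSTL3, which stayed between 7.29 and 11.6 TPM. The window and the run were chosen after the sequences were seen, and a run of letters is a description, not a functional site. RefSeq and GENCODE 29 place starts differently. The windows of FST, SMOC1 and FSTL1 lie wholly inside the GENCODE 29 gene, as do both of BMPER and the second of GREM1, and those of FSTL3, SMOC2 and the GREM1 window shown lie partly inside it. The 7-letter TCF/LEF motifs CTTTGAA, its variant CTTTGAT, a further form CTTTGTA and the last of them CTTTGTT, searched on both strands over the 300 bases of each promoter, were found in 13.8% of all promoters and in 0 of the 10 member promoters. This says only that these letters are not in these windows.

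Values are TPM as deposited by the authors. TPM divides reads by transcript length and by the library total, so levels of different genes can be compared. The number of reads behind them is unknown. Changes are on the log2(TPM + 1) scale, which understates the change of low genes. Libraries of the same time had Spearman correlations of 0.980 to 0.984 over the 14908 tested genes. The stem cell markers POU5F1, SOX2, LIN28A, DPPA4 and ZFP42 were all above 1 TPM in each of the 8 libraries, whereas NANOG had a mean of 2.03 TPM at 34 h and 0.682 TPM at 72 h. The WNT response genes AXIN2, SP5, LEF1 and NKD1 together had 28.3 to 29.4 TPM at 34 h and 334 to 458 TPM in the later libraries.

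FST (ENSG00000134363, chromosome 5, 53480409 to 53487134, plus strand) encodes follistatin, the main extracellular activin-binding protein. It stood at 13.4 and 14.8 TPM in replicates 1 and 2 at 34 h, 181 and 175 TPM at 42 h, next 391 and 399 TPM at 50 h, then 933 and 877 TPM at 72 h. The time points did not overlap, and every library was above every earlier one. The mean was 14.1 ± 0.986 TPM (SD, n = 2) at 34 h and 905 ± 39.2 TPM at 72 h, a ratio of 64.0, with 12.6 already reached at 42 h. On the log2 scale the rise was 3.57 from 34 to 42 h, 1.14 from 42 to 50 h and 1.19 from 50 to 72 h, so 60.4% of the whole log2 rise fell in the first 8 h after WNT3A. In TPM the gain was spread more evenly, at 20.5, 27.1 and 23.2 TPM per hour over the same intervals. Within replicates 1 and 2 the change at 72 h was 6.01 and 5.79. By level it went from rank 7779 and 7303 of the 35940 symbols at 34 h to rank 147 and 151 at 72 h.

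**Figure D1:**
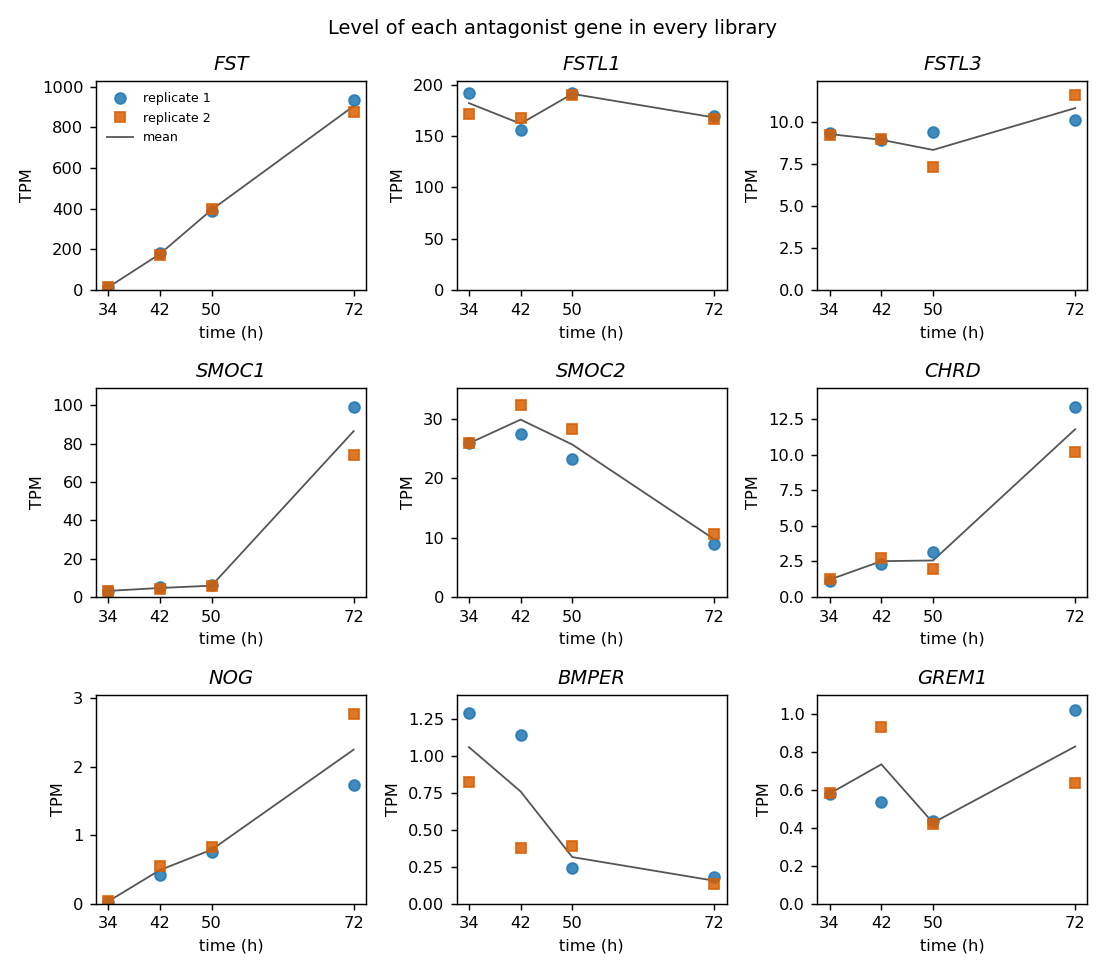
TPM (vertical axis, from 0, its own scale in each panel) of the 9 antagonist genes against time (h); circles are replicate 1, squares replicate 2, and the line joins the means of the 2 libraries. FST climbed at every step, to 905 TPM on average at 72 h, while SMOC1 and CHRD rose mainly and SMOC2 fell mainly after 50 h.

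Neither FSTL3 nor FSTL1 passed the test in any of the 5 comparisons between times. FSTL3 (ENSG00000070404, chromosome 19, 676365 to 683399, plus strand), the closest relative of FST in domain plan and also an activin binder, had 9.34 and 9.18 TPM at 34 h, 8.88 and 8.95 TPM at 42 h, next 9.36 and 7.29 TPM at 50 h, then 10.1 and 11.6 TPM at 72 h. Its 72 h libraries were above all others, but by little. The change at 72 h was 0.20 ± 0.16 (SE; 95% interval -0.16 to 0.57; limma adjusted p 0.394). FST had 1.44 and 1.62 times the TPM of FSTL3 at 34 h and 92.1 and 75.8 times at 72 h. FSTL1 (ENSG00000163430, chromosome 3, 120392293 to 120451253, minus strand) encodes a more distant, secreted member of the follistatin-domain family that has been described as a BMP antagonist. It had 192 and 171 TPM at 34 h, 156 and 168 TPM at 42 h, next 192 and 190 TPM at 50 h, then 169 and 167 TPM at 72 h. Its libraries stayed in a narrow band, and its change at 72 h was -0.11 ± 0.09 (95% interval -0.31 to 0.09; limma adjusted p 0.405). FSTL1 was thus the most abundant of the 9 genes at 34 h, and FST passed it at 42 h.

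SMOC1 and SMOC2 are secreted modular calcium-binding proteins with a follistatin-like domain, and SMOC1 is needed for eye and limb development. SMOC1 (ENSG00000198732, chromosome 14, 69854131 to 70032366, plus strand) had 3.11 and 3.24 TPM at 34 h, 5.22 and 4.17 TPM at 42 h, next 6.15 and 5.65 TPM at 50 h, then 99.1 and 73.9 TPM at 72 h. The first 3 time points lay within a few TPM of each other and the 72 h libraries far above them. Of its log2 rise of 4.37 from 34 to 72 h, 83.5% fell between 50 and 72 h, against 20.2% for FST. The mean at 72 h was 86.5 ± 17.8 TPM, 14.7 times the mean at 50 h.

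SMOC2 (ENSG00000112562, chromosome 6, 168441151 to 168673445, plus strand) went the other way over the same interval. It had 25.9 and 25.9 TPM at 34 h, 27.4 and 32.4 TPM at 42 h, next 23.2 and 28.3 TPM at 50 h, then 8.85 and 10.6 TPM at 72 h. Both 72 h libraries lay below all 6 earlier ones. SMOC2 fell by 1.32 on the log2 scale from 50 to 72 h (SE 0.15, limma adjusted p 0.00200; -1.29 and -1.34 within replicates 1 and 2). Against 34 h the change at 72 h was -1.33 ± 0.15 (limma adjusted p 0.000627). The ratio of SMOC1 to SMOC2 in TPM was 0.120 and 0.125 at 34 h, 0.190 and 0.129 at 42 h, 0.265 and 0.199 at 50 h, then 11.2 and 6.99 at 72 h, so the order of the pair was turned around in both 72 h libraries. The sum of both genes reached 108 and 84.5 TPM at 72 h, from at most 29.2 TPM at 34 h.

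CHRD (ENSG00000090539, chromosome 3, 184380073 to 184390736, plus strand) encodes chordin, which holds BMPs in the extracellular space until it is cleaved by tolloid proteases. It had 1.15 and 1.30 TPM at 34 h, 2.31 and 2.73 TPM at 42 h, next 3.19 and 1.96 TPM at 50 h, then 13.4 and 10.2 TPM at 72 h. The 42 and 50 h libraries were above the 34 h ones without passing the test (0.66 ± 0.24 at 42 h, limma adjusted p 0.255). From 34 to 72 h CHRD rose by 2.52 ± 0.24 (limma adjusted p 0.000221), with 2.75 in replicate 1 and 2.29 in replicate 2. From 50 to 72 h it rose by 1.85 ± 0.24 (limma adjusted p 0.00317). By its rise it held rank 47 of the 14908 genes in the latter interval.

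NOG (ENSG00000183691, chromosome 17, 56593699 to 56595590, plus strand) encodes noggin, a dimer that covers the receptor-binding surfaces of BMPs. Its values were 0.0307 and 0.0386 TPM at 34 h, 0.427 and 0.558 TPM at 42 h, next 0.750 and 0.828 TPM at 50 h, then 1.73 and 2.77 TPM at 72 h. The time points did not overlap, but only the 72 h libraries reached 1 TPM. NOG therefore passed the filter through the group where it was high. At 72 h against 34 h it was called (1.63 ± 0.27, limma adjusted p 0.00362), also with no filter on low values. Without either 72 h library, or with a mean of at least 5 TPM required, NOG was not tested at all. At 50 h against 34 h the change of 0.79 did not pass (limma adjusted p 0.140), but did with a pseudocount of 0.1 (0.0409) and without the mean trend (0.0457), in a range of 0.0409 to 0.353 over the alternatives to the chosen processing.

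BMPER (ENSG00000164619, chromosome 7, 33904308 to 34156356, plus strand), a chordin-like extracellular regulator of BMPs, was near the limit of 1 TPM at the start and lower later. It had 1.29 and 0.825 TPM at 34 h, 1.14 and 0.378 TPM at 42 h, next 0.240 and 0.393 TPM at 50 h, then 0.180 and 0.133 TPM at 72 h. BMPER reached 1 TPM in replicate 1 at 34 h and at 42 h alone and passed the filter through these 2 libraries. Without either of them, or with a mean of at least 5 TPM required, it was not tested. Its change at 72 h was -0.82 ± 0.31 (95% interval -1.54 to -0.11; limma adjusted p 0.0924), and it passed only without the mean trend (0.0453, in a range of 0.0453 to 0.253). GREM1, gremlin 1, a cysteine-knot BMP antagonist, reached 1 TPM in 1 library and was not tested. Its summed values lay between 0.421 and 1.02 TPM. The table lists GREM1 under 2 Ensembl identifiers. ENSG00000166923 (chromosome 15, 32717974 to 32745107, plus strand) was listed at 0 in 3 of the 8 libraries, and ENSG00000276886, with 0.219 to 0.579 TPM, has no position in GENCODE 29.

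Apart from FST and SMOC1, 6 members passed the filter. At 42 h against 34 h 0 of the 6 were called at a limma adjusted p under 0.05 (1 at an unadjusted p under 0.05), where 2.58% of all genes were (1.78% raised, 0.792% lowered). At 50 h the count was again 0 of 6 (2 at an unadjusted p under 0.05), with 6.26% of all genes called (3.52% raised, 2.74% lowered). Between 42 and 50 h it was 0 of 6 by limma (1 at an unadjusted p under 0.05), with 0.0939% of all genes called (0.0604% raised, 0.0335% lowered). At 72 h against 34 h 3 of the 6 were called, CHRD and NOG raised and SMOC2 lowered, with 24.0% of all genes called (12.7% raised, 11.3% lowered). From 50 to 72 h CHRD and SMOC2 were called, 2 of 6, with 7.33% of all genes called (2.92% raised, 4.41% lowered). The split of the calls over all genes moved with the scaling. At 72 h against 34 h it was 1900 raised and 1678 lowered as reported, 1552 and 2003 after TMM rescaling and 1638 and 1796 after quantile normalization, and at 50 h it was 525 and 408, 460 and 506, and 466 and 474. The median change of the 6 at 72 h against 34 h was 0.05, beside 0.06 for all genes. With 6 members these shares are descriptions, and 1 of the calls at 72 h is that of NOG, which passed the filter through its 72 h libraries.

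**Figure D2:**
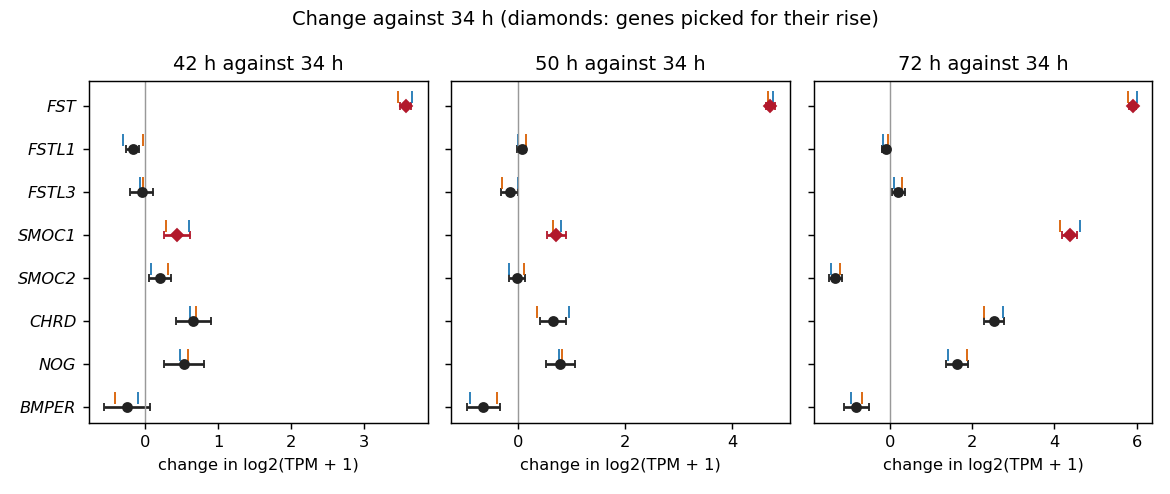
Change in log2(TPM + 1) (horizontal axis) at 42, 50 and 72 h against 34 h for the 8 members that passed the filter; points are fitted changes with bars of 1 SE, ticks above them the changes within replicate 1 (blue) and replicate 2 (orange), and red diamonds mark FST and SMOC1, picked for their rise. FST was at 3.57 already at 42 h, whereas SMOC1, CHRD and SMOC2 stood apart from 0 mainly at 72 h.

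The make-up of the group turned over. The 9 genes summed to 247 and 227 TPM at 34 h, 383 and 393 TPM at 42 h, next 626 and 634 TPM at 50 h, then 1240 and 1150 TPM at 72 h. FSTL1 held 77.8% and 75.4% of that sum at 34 h and FST 5.44% and 6.53%. At 42 h the shares of FST and FSTL1 were close, 47.4% against 40.6% in replicate 1 and 44.5% against 42.7% in replicate 2. At 72 h FST held 75.4% and 76.0%, FSTL1 13.7% and 14.5%, and SMOC1 8.02% and 6.40%. Without FST, the sum was 234 and 212 TPM at 34 h, 235 and 235 TPM at 50 h, then 304 and 277 TPM at 72 h, so before 72 h the growth of the sum was that of FST.

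**Figure D3:**
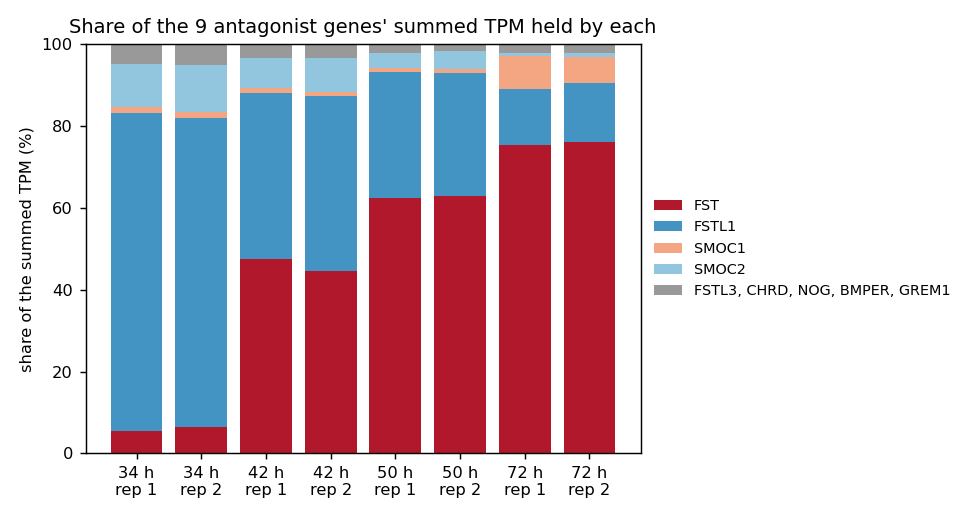
Share (%) of the summed TPM of the 9 antagonist genes held by FST, FSTL1, SMOC1, SMOC2 and the other 5 together, 1 bar per library. FST went from 5.44% and 6.53% at 34 h to 75.4% and 76.0% at 72 h, and FSTL1 from 77.8% and 75.4% to 13.7% and 14.5%.

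As a description, the genes whose course was most like that of FST were sought by Pearson correlation over the 8 libraries, among 1494 genes with a mean of at least 5 TPM at some time and means that spanned at least 1 on the log2 scale. They were LIX1 (r 0.9983), VAT1L (0.9970), ADAMTS19 (0.9965), a secreted metalloprotease, PRMT8 (0.9949), an arginine methyltransferase, and NEBL (0.9945), an actin-binding protein. LIX1 had means of 0.166, 6.04, 12.2 and 21.5 TPM at the 4 time points and ADAMTS19 14.8, 35.2, 49.5 and 69.7 TPM, each higher at every step. For SMOC1 they were the linker histone gene H1F0 (0.9951), LIX1L (0.9947), the transcriptional cofactor gene VGLL3 (0.9926) and the hindbrain HOX genes HOXB1 (0.9924) and HOXB2 (0.9922). VGLL3 had means of 6.74, 7.85, 13.2 and 178 TPM, low until 50 h and high at 72 h as SMOC1 was. These correlations are over libraries that share their time points, and the candidates were screened for having changed. Between members, over the same 8 libraries and as a description, SMOC1 and CHRD had r 0.98 and SMOC1 and SMOC2 -0.97. FST had r 0.90 with NOG, 0.80 with CHRD, 0.72 with SMOC1, -0.58 with SMOC2 and -0.82 with BMPER. With FSTL3, GREM1 and FSTL1 it had 0.22, 0.20 and -0.20.

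Other genes of the pathway were read from 8 lists with 91 genes, of which 63 passed the filter. The lists were chosen with earlier results of these data known, so their shares here and below are descriptions. At 42 h against 34 h 10 of the 63 were raised and 0 lowered (15.9% called, all genes 2.58%). Of these 10, ATOH8, INHBB, MSX1 and NODAL were below 1 TPM in both 34 h libraries and passed the filter through later times. At 50 h 12 were raised and 1 lowered (20.6% called, all genes 6.26%), or 12 and 4 after TMM rescaling, and 5 of the 13 called were below 1 TPM in both 34 h libraries. At 72 h 16 were raised and 12 lowered (44.4% called, all genes 24.0%), with a median change of 0.17 beside 0.06 for all genes. Of the 28 genes called at 72 h, 11 were below 1 TPM in both libraries of 34 h or of 72 h and passed the filter through the other times. The 72 h count was 18 without either 34 h library or replicate 2 at 72 h, and 16 without replicate 1 at 72 h. The 42 h count was 4 without either 42 h library and 5 without replicate 2 at 34 h, and the 50 h count was 7 without either 34 h library and 6 without replicate 1 at 50 h.

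Of 16 other secreted antagonists 6 passed the filter, with 1 raised and 2 lowered at 72 h (50.0% called, all genes 24.0%), and the nodal antagonists CER1, LEFTY1 and LEFTY2 had means of at most 0.171 TPM. Of the 3 called, WFIKKN2 reached 1 TPM in the 34 h libraries alone and passed the filter through them. Without either 34 h library it was not tested. WFIKKN1, a secreted binder of myostatin and GDF11, had 1.65 and 1.25 TPM at 34 h, then 13.0 and 14.0 TPM at 72 h, and so rose by 2.57 ± 0.23 (limma adjusted p 0.000154). WFIKKN2 (-0.98, limma adjusted p 0.0364, range over the alternatives 0.00995 to 0.137) and NBL1 (-1.11, limma adjusted p 0.0132, range 0.00438 to 0.0708) were lowered, calls lost without either 72 h library, for WFIKKN2 also after quantile normalization (0.0590), and for NBL1 also without either 34 h library. Of 11 other genes with a follistatin domain 8 were tested, and SPOCK1 alone was called at 72 h (12.5% called, all genes 24.0%), with 3.42 TPM at 34 h and 8.47 TPM at 72 h (limma adjusted p 0.00579).

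Of 21 ligand genes 13 were tested, and at 72 h 2 were raised and 6 lowered (61.5% called, all genes 24.0%). Of these 8, INHBA, INHBB, BMP5, BMP6 and GDF3 were below 1 TPM in both libraries of 34 h or of 72 h and passed the filter through other times. INHBA, an activin subunit gene and so a target of follistatin, had 2.03 and 2.52 TPM at 34 h, then 0.0997 and 0.130 TPM at 72 h (-1.55 ± 0.25, limma adjusted p 0.00312). INHBB, for the other main subunit, had 0.339 and 0.319 TPM at 34 h, then 1.80 and 1.88 TPM at 72 h (1.10, limma adjusted p 0.0163; range 0.00610 to 0.0820, above 0.05 with any 1 library of these times left out). Together they had 2.37 and 2.84 TPM at 34 h, 3.92 and 2.66 TPM at 42 h, next 3.57 and 2.94 TPM at 50 h, and at most 2.01 TPM at 72 h. INHBE, a further activin subunit gene outside this sum, had 11.9 and 15.7 TPM at 34 h, then 1.70 and 2.53 TPM at 72 h. BMP4, BMP6 and BMP7, which the naming rule did not cover and which were named after their values were seen, fell at 72 h, BMP4 from 6.27 to 2.23 TPM (limma adjusted p 0.00393), BMP6 from 1.95 to 0.357 TPM (limma adjusted p 0.0109, range 0.00259 to 0.0701, above 0.05 without replicate 1 at 34 h or either 72 h library) and BMP7 from 24.7 to 9.10 TPM (limma adjusted p 0.00401). INHBE fell too (-2.25, limma adjusted p 0.000430), and GDF3, with a mean of 1.66 TPM at 34 h, was listed at 0 in both 72 h libraries (limma adjusted p 0.00906; 0.0510 without replicate 1 at 72 h, range 0.00328 to 0.0510). BMP5 rose by 1.61 to 2.12 TPM (limma adjusted p 0.00375). BMP2 (6.58 to 5.02 TPM, limma adjusted p 0.174) and BMP8A (1.41 to 1.71 TPM, limma adjusted p 0.608) were not called at 72 h. They too were named after their values were seen. NODAL was raised at 42 h, from 0.572 and 0.449 TPM to 8.32 and 7.84 TPM (2.59 ± 0.25, limma adjusted p 0.00124), and had 0.417 and 0.361 TPM at 72 h.

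Of 16 receptor and co-receptor genes 13 were tested, with 4 raised and 1 lowered at 72 h (38.5% called, all genes 24.0%). RGMB, a membrane-anchored BMP co-receptor, had 17.6 and 15.4 TPM at 34 h, 48.1 and 45.4 TPM at 42 h, then 110 and 97.0 TPM at 72 h (2.58 ± 0.13 at 72 h, limma adjusted p 9.18e-06). Its relative RGMA (1.25, limma adjusted p 0.000323) and the type I receptor gene TGFBR1 (0.92, limma adjusted p 0.00158) rose as well. The nodal co-receptor gene TDGF1 fell by 7.17, from 743 and 785 TPM to 2.94 and 6.13 TPM (limma adjusted p 2.17e-06). Its change of -1.09 at 42 h missed the threshold (limma adjusted p 0.0595, range 0.00420 to 0.291), and passed it with the replicate block (0.0349), with a mean of at least 5 TPM, with these times alone and without either 72 h library. Of 8 SMAD genes 7 were tested, and SMAD3, a transducer of activin and nodal signals (1.46, limma adjusted p 0.00374), SMAD6, an inhibitory SMAD (1.34, limma adjusted p 0.00539), and SMAD5 were raised at 72 h (42.9% called, all genes 24.0%). The call of SMAD5 (0.54, limma adjusted p 0.0492, range 0.0289 to 0.254) held in 3 of 17 alternatives. Among 7 processing enzyme genes, BMP1, whose protease cleaves chordin, had 5.87 and 6.69 TPM at 34 h, then 20.1 and 18.8 TPM at 72 h (1.49 ± 0.14, limma adjusted p 0.000235).

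**Figure D4:**
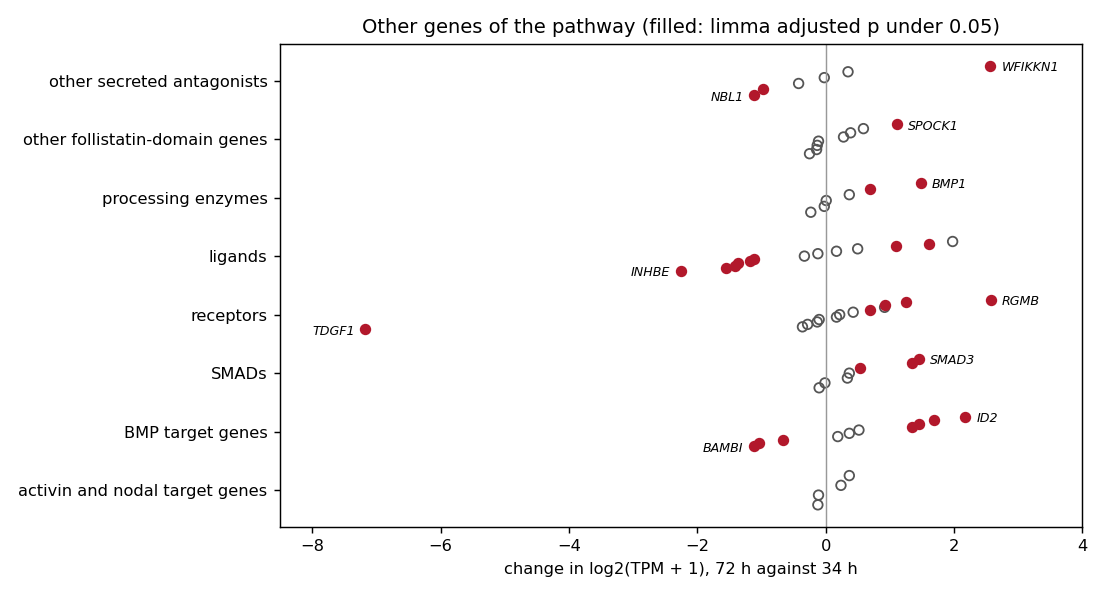
Change in log2(TPM + 1) at 72 h against 34 h (horizontal axis) for the tested genes of the 8 pathway lists, 1 point per gene, filled where the limma adjusted p was under 0.05; the outermost called genes are named, and genes on more than 1 list appear in each. The lists hold changes in both directions, from TDGF1 at -7.17 to RGMB at 2.58.

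Of 11 genes listed as BMP targets 10 were tested, and at 72 h 4 were raised and 3 lowered (70.0% called, all genes 24.0%). Of these 7, MSX1, MSX2, SMAD6, ID4 and BAMBI were below 1 TPM in both libraries of 34 h or of 72 h and passed the filter through other times. ID2, for an inhibitor of helix-loop-helix transcription factors, had 24.3 and 29.3 TPM at 34 h, 59.3 and 62.3 TPM at 42 h, then 130 and 120 TPM at 72 h (2.18 ± 0.11 at 72 h, limma adjusted p 1.13e-05). ID3, named after its values were seen, had means of 216, 309, 362 and 247 TPM at 34, 42, 50 and 72 h. It was not called against 34 h (limma adjusted p 0.241 at 42 h, 0.0503 at 50 h and 0.488 at 72 h). ID1 (-0.66, limma adjusted p 0.0396, range 0.0272 to 0.164), ID4 (-1.03, limma adjusted p 0.0240, range 0.00829 to 0.122) and the decoy receptor gene BAMBI (-1.11, limma adjusted p 0.0254, range 0.0183 to 0.140) were lowered, each call lost in at least 2 of the alternatives that left out 1 library. MSX1 was listed at 0 in both 34 h libraries and had 1.98 and 2.12 TPM at 42 h, then a mean of 1.76 TPM at 72 h (limma adjusted p 0.00214 at 72 h). MSX2 rose by 1.69 to 3.15 TPM (limma adjusted p 0.00358). Of 9 genes listed as activin and nodal targets 4 were tested. At 42 h NODAL alone was called (1 of 4, with 3 at an unadjusted p under 0.05, all genes 2.58%). At 50 h MIXL1, named after its values were seen, was called (1.25, limma adjusted p 0.0232, range 0.00314 to 0.121), a call lost without any 1 library of 34 or 50 h and with these times alone (1 of 4 called, all genes 6.26%). MIXL1 reached 1 TPM in the 42 and 50 h libraries alone and passed the filter through them. Its change of 1.16 at 42 h missed the threshold (limma adjusted p 0.0552). It passed with a pseudocount of 0.1 (limma adjusted p 0.0397), with no filter (0.0183) and without the mean trend (0.00699). At 72 h limma called 0 (0 also at an unadjusted p under 0.05), with 24.0% of all genes called.

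Markers of other cell types that could make these antagonists were read in the same libraries. In bulk RNA, more cells of a type and more RNA per cell cannot be told apart. The notochord genes NOTO, SHH, TBXT and FOXA2 together had 13.1 and 15.2 TPM at 34 h, 13.0 to 18.8 TPM at 42 and 50 h, then 2.27 and 3.06 TPM at 72 h. Of these, FOXA2, which is also the main part of the endoderm sum, had means of 12.7, 7.38, 5.73 and 0.720 TPM at the 4 time points. TBXT had means of 0.994, 9.65, 8.23 and 1.74 TPM, and NOTO and SHH were under 1 TPM in every library. Of 6 mesoderm genes 4 were under 1 TPM in every library, MSGN1 was listed at 0 in all, and the list summed to between 0.480 and 2.57 TPM. Of 4 endoderm genes 3 stayed under 1 TPM in every library, SOX17 was listed at 0 in all, and the sum went from 12.2 and 13.6 TPM at 34 h to 0.598 and 0.866 TPM at 72 h. The caudal progenitor genes NKX1-2, TBXT, CDX1 and CDX2 summed to 23.2 and 26.4 TPM at 34 h, 138 to 170 TPM at 42 and 50 h, then 17.9 and 29.6 TPM at 72 h. Of 4 amnion and surface ectoderm genes 3 were under 1 TPM in every library, and the sum, mostly KRT7, went from 35.7 and 40.7 TPM at 34 h to 7.33 and 5.16 TPM at 72 h. With the 72 h rise of SMOC1 and CHRD and the fall of SMOC2, the sum of 5 neural progenitor genes went from 446 and 395 TPM at 50 h to 622 and 567 TPM at 72 h. Of these, SOX1 went from a mean of 6.10 to 50.8 TPM, PAX6 from 0.413 TPM to between 3.59 and 4.01 TPM, and SOX3 from 16.4 to 19.9 TPM, while NES and ZIC2 made up most of the sum. The sum of 6 stem cell genes went from 2490 and 2640 TPM to 2010 and 1910 TPM, with the mean of POU5F1 going from 867 to 371 TPM and that of SOX2 the other way, from 236 to 340 TPM. The 6 neural crest genes summed to between 6.41 and 12.4 TPM up to 50 h and to 16.7 and 14.3 TPM at 72 h, with mixed courses. From 34 to 72 h the means of SNAI2 went from 0.350 to 6.09 TPM and of PAX3 from 0.134 to 4.53 TPM, those of FOXD3 from 4.56 TPM to a listed 0 and of ETS1 from 3.91 to 2.31 TPM, SOX10 had 2.66 and 2.59 TPM, and TFAP2B was under 1 TPM in every library. The part of these markers in the changes of the antagonist genes was not tested.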

How the data were processed

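Poly(A)-enriched RNA of 8 libraries, 2 at each of 4 time points, was measured, and the authors deposited TPM for each Ensembl gene. Salmon 1.9.0 and GRCh38 are named in the submitters' processing notes, with no role given. Each TPM column sums to 1e+06, so a gene's TPM also depends on all other genes. Read depth is unknown, and the precision rests on the 2 libraries of each time.

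The 37951 rows were summed to 35940 symbols. The 14908 genes that reached 1 TPM in 2 or more libraries were fitted with limma 3.58.1 (R 4.3.3) on log2(TPM + 1) over all 8 libraries, with a mean trend and 4 residual degrees of freedom. Every adjusted p is Benjamini-Hochberg over these 14908 genes, called under 0.05, and two-sided. The pathway genes named were, by rule, those called at 42 h and up to 3 per list and direction at 72 h. BMP2, BMP4, BMP6, BMP7, BMP8A, ID3 and MIXL1 were added after their values were seen. The less stable 42 h calls are given in the sensitivity paragraph. The alternatives were a pseudocount of 0.1, no filter, a mean of at least 5 TPM, TMM rescaling, quantile normalization, no mean trend, the compared time points alone, a replicate block, Ensembl rows kept apart, and each library left out. The replicate number pairs the libraries because the labels give it as a batch. Same-numbered deviations had correlations of -0.104 to 0.195 between times. The members and lists were chosen with earlier results of these data known. Promoters are from RefSeq (GRCh38.p14), and gene positions from GENCODE 29.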

Additional observations from a re-analysis of the deposited data

How the results depend on the processing

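Among the antagonist genes, the calls of SMOC2 and CHRD at 72 h against 34 h and against 50 h held in every alternative that gave a value. NOG at 72 h against 34 h was called in the 14 alternatives that tested it, but it was not tested without either 72 h library or with a mean of at least 5 TPM, so these do not bear on its stability. FST at 72 h ranged from 5.83 to 5.99 and SMOC1 from 4.16 to 4.71 on the log2 scale. With a mean of at least 5 TPM required, the count of called members was 1 at 72 h against 34 h and 1 against 50 h, since CHRD and NOG were then not tested, and that of other pathway genes 6, 8, 13 and 7 at 42, 50 and 72 h against 34 h and at 72 against 50 h, with 24 of all genes called at 50 against 42 h. A pseudocount of 0.1 and no mean trend each called 1 member, NOG, at 50 against 34 h. At 50 against 42 h all genes called were 14, but 27 without the trend, 8 without the filter, 4 with Ensembl rows apart, 0 with these times alone and 7 with the replicate block, and 1 other pathway gene was called without the trend and 1 after TMM rescaling. With the compared time points alone, all genes called were 171, 431 and 367 and other pathway genes 6, 8 and 4 at 42 and 50 h against 34 h and at 72 against 50 h. Leaving out 1 library gave 160 to 385, 412 to 809 and 1840 to 3661 calls over all genes at 42, 50 and 72 h against 34 h, 1 to 8 at 50 against 42 h and 319 to 929 at 72 against 50 h. For other pathway genes it gave 4 to 9, 6 to 14, 16 to 26, 0 to 0 and 1 to 8, the lowest of the last without replicate 1 at 72 h, and for the members 0 to 0, 0 to 0, 2 to 3, 0 to 0 and 2 to 2. With the replicate block, INHBB at 42 h was lost (limma adjusted p 0.0576 against 0.0468) and TDGF1 at 42 h gained (0.0349 against 0.0595). No other call changed among the named genes that were followed through the alternatives. BMP2, BMP8A and ID3 were not followed. Of the 42 h calls, ID2 (1.16, limma adjusted p 0.00143), RGMB (1.45, 0.000946) and NODAL held throughout. MSX1 (0.00620, range 0.00111 to 0.0543), ATOH8 (1.87, 0.00498, range 0.00361 to 0.0508), INHBB (1.23, range 0.0209 to 0.220), TLL2 (1.21, 0.0174, range 0.0142 to 0.118), SMAD3 (1.18, 0.0450, range 0.0240 to 0.211), SMAD2 (0.64, 0.0187, range 0.0131 to 0.129) and RGMA (0.82, 0.0130, range 0.00698 to 0.104) did not, and neither did TLL2 at 72 h (0.69, 0.0382, range 0.0252 to 0.206). The direction of uncalled changes turned for CHRD at 50 against 42 h (0.00; -0.01 with a pseudocount of 0.1, -0.03 after TMM rescaling, -0.25 to 0.25 with 1 library left out). With 1 library left out it also turned for BMPER (-0.42 to 0.07), SMAD5 (-0.19 to 0.24) and WFIKKN1 (-0.03 to 0.21) at 42 h, for FSTL1 (-0.01 to 0.16), FSTL3 (-0.31 to 0.01) and SMOC2 (-0.16 to 0.12) at 50 against 34 h and for FSTL3 at 50 against 42 h (-0.26 to 0.06). Apart from genes no longer tested or samples left out, the cause was not tested.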
